A study of Drosophila melanogaster with 9 samples.

Results

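The genes described here encode the voltage-gated and potassium leak channels of the fly brain together with their auxiliary subunits. They were taken from a list of 34 *Drosophila melanogaster* genes chosen by known function, with earlier results of these data known. A gene counted when its symbol stood in both deposited expression tables. Of the 34 genes, 33 did so, out of 17562 gene IDs, and all 33 passed the minimum mean of 1 normalized count in each comparison. The gene listed as stol was found under its older name CG4587, and its values are given with the related genes. By the channel family they were listed under, 4 members were placed with sodium, 4 with calcium, 21 with potassium and 4 with mixed cations. The products of 26 members form pores and 7 are auxiliary proteins. On the BDGP6 annotation 9 members lie on the X chromosome, 5 on 2L, 8 on 2R, 3 on 3L and 8 on 3R.

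RNA was sequenced from pools of 20 dissected brains of adult females, 4 to 6 days old, in 3 groups of 3 libraries. The PGRP-LB Ecc15 group held PGRP-LB mutants given the bacterium Ecc15 by mouth. The deposited columns write this genotype as PGRP-LBD, and the added letter is not explained there. PGRP-LB is an enzyme that degrades peptidoglycan, a bacterial wall polymer. The WT Ecc15 group held wild-type flies given the same bacterium, and the WT control group held wild-type flies without it. The labels' protocols give an exposure of 16 h, while the series' design text names a longer feeding with sucrose as the control diet. The labels do not say which part of PGRP-LB is changed, name no strain and state no driver or transgene. No unexposed mutant group was analysed here, so against WT control the effects of genotype, strain background and exposure cannot be told apart. The question of the series is how peptidoglycan from gut bacteria alters gene expression in the brain.

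Most voltage-gated channels open when the membrane depolarizes, while the Ih channel is activated by hyperpolarization. Sodium channels carry the rising phase of the action potential, calcium channels admit the calcium that triggers transmitter release, and potassium channels repolarize the cell. Leak and inward rectifier potassium channels conduct near the resting potential and help to set it. In flies many of these genes were first found through mutants that shake, become paralysed by heat or lose sleep, and several act in sleep and clock neurons.

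PGRP-LB itself had 687, 1359 and 721 normalized counts in PGRP-LB Ecc15 brains, against 164, 120 and 151 in WT control brains of the same table and was called higher (limma, adjusted p = 0.00134). In the other table it had 335, 261 and 224 in WT Ecc15 brains, against 167, 122 and 154 in WT control brains, and was not called (limma, adjusted p = 0.307). A sum over the whole gene does not check a label whose changed part is unknown. The eye colour gene white (w) stood at 11128 to 18926 in PGRP-LB Ecc15 brains, against 5 to 13 in WT control brains. The groups thus also differ in w RNA. Whether this difference belongs to the strain background or to the mutant allele itself is not given in the labels. Depth, as the number of reads assigned to genes, was estimated at 19.4 to 30.7 M (mega) per library. The mutant libraries also had lower marker sums for glia and haemocytes and higher ones for muscle than either wild-type group. The 9 glial markers summed to 119724 to 129305 normalized counts in PGRP-LB Ecc15 brains, to 146018 to 148158 in WT Ecc15 brains and to 147178 to 162890 in WT control brains. The 11 muscle markers summed to 19792 to 36149 in PGRP-LB Ecc15 brains, to 4563 to 9791 in WT Ecc15 brains and to 3831 to 14927 in WT control brains. The 7 haemocyte markers summed to 13344 to 18827 in PGRP-LB Ecc15 brains, to 28605 to 35465 in WT Ecc15 brains and to 22590 to 24492 in WT control brains. In WT Ecc15 against WT control their median log2 change was 1.0, with 0 of 7 called by limma. In PGRP-LB Ecc15 against WT control the median was -0.43, with 1 of 7 called lower (Col4a1). There Hml, NimC1, Pxn, He and eater overlapped between the groups, and eater changed upward (log2 change 0.30). The 7 fat body markers summed to 59416 to 383540 in PGRP-LB Ecc15 brains, to 195774 to 269592 in WT Ecc15 brains and to 69428 to 177301 in WT control brains. The 8 neuronal markers, all detected in each group, summed to 224239 to 236290 in PGRP-LB Ecc15 brains, to 237055 to 249662 in WT Ecc15 brains and to 221181 to 258214 in WT control brains. The 12 photoreceptor markers varied widely within groups, at 34695 to 158010 in PGRP-LB Ecc15 brains, 97131 to 222498 in WT Ecc15 brains and 60349 to 356100 in WT control brains.

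WT control library S1 stood apart for these genes. It held the lowest WT control value for 29 of the 33 members, with a median log2 ratio of -0.24 to the other 2 control libraries. Over the 8130 genes with a mean of at least 100 normalized counts that ratio was 0.02, and over the third of them with the longest exons it was -0.04. The 8 neuronal markers had a median ratio of -0.19 there, and 6 of them were lowest in that library. WT control library S3 held the highest control value for 23 members, with a median ratio of 0.22. It was also the lowest control library for all 12 photoreceptor and all 11 muscle markers. PGRP-LB Ecc15 library S2 was lowest in its group for 26 members (median ratio -0.11), and WT Ecc15 library S1 was highest in its group for 24 (median ratio 0.11). The part of tissue content in this shared spread was not tested. Calls of channel genes against WT control are given below with and without library S1 where it changes them. Related genes and class sums were not recomputed without it.

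**Figure D1:**
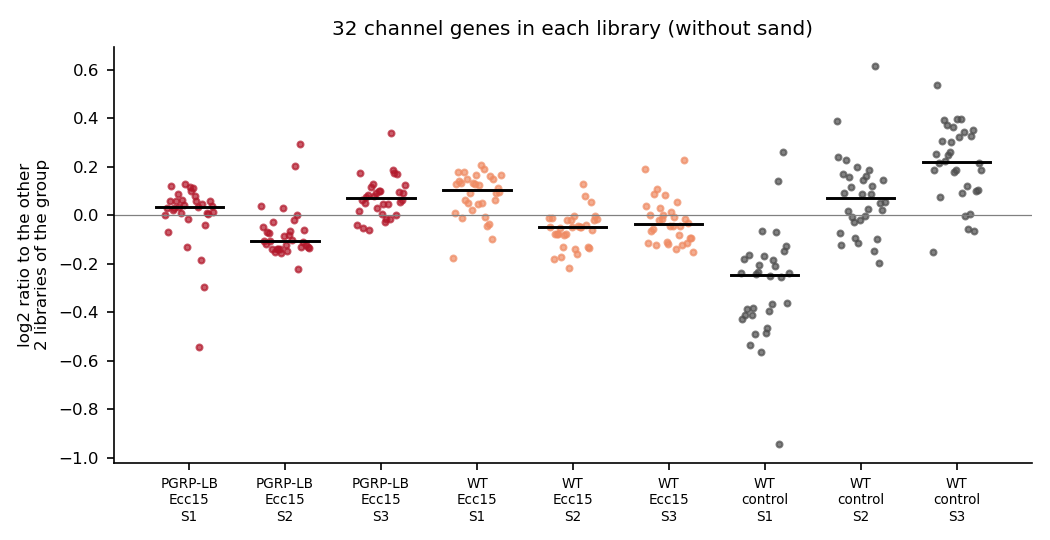
Each point is 1 of 32 channel genes, placed by the log2 ratio of its value in 1 library to the mean log2 value of the other 2 libraries of the same group, with the black line at the median. Most points of WT control S1 lie below 0 and most points of WT control S3 above it, while the exposed libraries scatter more closely around 0; sand, with few counts, is left out.

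Levels in unexposed brains are given as normalized counts per kilobase of exon, so that different genes can be set side by side. All but 2 of the 33 members, 31 in number, stood above the median of 178.7 per kb over 12483 measured genes with a known length. The exceptions were Irk1 and sand. In the order from highest to lowest, library ranges overlapped in 27 of the 32 neighbouring pairs. All genes were measured in the same libraries, so such overlap does not settle a rank. For example, slo overlapped Shab yet was above it in each control library. The order within libraries was not tested. Between libraries the coefficient of variation ran from 5.1% for Irk2 to 102.3% for sand.

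Among the genes placed with sodium NaCP60E was highest, with 2591, 3532 and 3442 per kb in the WT control libraries. Its product resembles the sodium channel in sequence. Next was para, with 1796, 2405 and 1874 per kb. It encodes the channel that carries the action potential in flies. Library S1 was the lowest of the 3 for both, and their ranges do not touch. The auxiliary subunits that support Para were lower, with tipE at 768, 809 and 939 per kb and Teh1 at 486, 556 and 755 per kb.

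The calcium channel genes lay within a narrow band. Ca-alpha1T, the low-voltage-activated T-type channel, had 2116, 3017 and 3126 per kb, and cac, the presynaptic channel that drives transmitter release, had 1656, 2143 and 2188 per kb. Ca-alpha1D, the L-type channel, had 1696, 1913 and 1898 per kb. Its range overlapped that of cac. The auxiliary subunit Ca-beta was lowest, at 1005, 1228 and 1461 per kb.

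Potassium channel genes covered the widest range. The highest was qvr, also called sleepless, which encodes a membrane-anchored protein that promotes Shaker activity and sleep. It had 6091, 7323 and 8805 per kb in the WT control libraries, above every other member in every library. Irk2, an inward rectifier, had 2957, 3236 and 2980 per kb and was the steadiest member, with a coefficient of variation of 5.1%. The calcium-activated channel gene slo had 2421, 2936 and 2841 per kb.

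Below these came Shab, the delayed rectifier, at 2350 ± 460 per kb (SD, n = 3), and Shaw at 1574 ± 183 per kb. SLO2 (1547 ± 252), the Shaker beta subunit Hk (1508 ± 275), Shal (1411 ± 161), the leak channel gene Task7 (1363 ± 150) and Sh (1362 ± 201) followed without gaps between their library ranges. The genes sei, SK, Irk3 and Task6 averaged 1064 to 1225 per kb. Elk averaged 868.2 ± 72.5, eag 652 ± 140, the M-type channel gene KCNQ 444 ± 88.8 and Shawl 413 ± 52.3 per kb. The leak channel gene Ork1 had 192, 395 and 345 per kb, with library S1 lowest.

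After Ork1 the order broke off. Irk1 had 11.2, 13.0 and 13.2 per kb, a mean 24.9-fold below that of Ork1. The lowest was sand (sandman), a tandem-pore leak channel known in flies for its part in switching sleep-promoting neurons, with 3.03, 8.59 and 0.506 per kb. These sand values rest on 6, 17 and 1 normalized counts, so its level in unexposed brains is known only roughly.

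The mixed cation group held 2 of the highest genes. The auxiliary genes of the NALCN-type sodium leak channel, unc79 and unc80, had 3698, 4686 and 4835 per kb and 2926, 3355 and 3564 per kb. The pore gene of that channel, na (narrow abdomen), had 1362, 1462 and 1519 per kb. Its mean was below that of both auxiliary genes, and its highest library was below their lowest. Ih, the hyperpolarization-activated channel gene, had 1516, 1665 and 1704 per kb.

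Of the summed level of the 26 pore-forming genes, potassium channels made up 60.5% ± 1.39 (SD, n = 3), calcium channels 17.4% ± 0.86, sodium channels 13.8% ± 1.09 and mixed cation channels 8.2% ± 0.39. The potassium share is a sum over 19 genes, while the others rest on 2 or 3 genes each. The sodium share counts NaCP60E, whose product resembles the sodium channel in sequence and whose ion was not examined here. NaCP60E gave 3188.5 of the mean sodium sum of 5213.4 per kb, and para gave 2024.9, so most of this share is not para. By class, voltage-gated potassium channels held 27.3%, the slo, SLO2 and SK class 14.6%, inward rectifiers 11.3% and tandem-pore leak channels 7.3%. Levels depend on which exons are counted as the gene's length. By the longest transcript Sh moved to rank 9 from rank 19, and the potassium share became 62.2%.

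**Figure D2:**
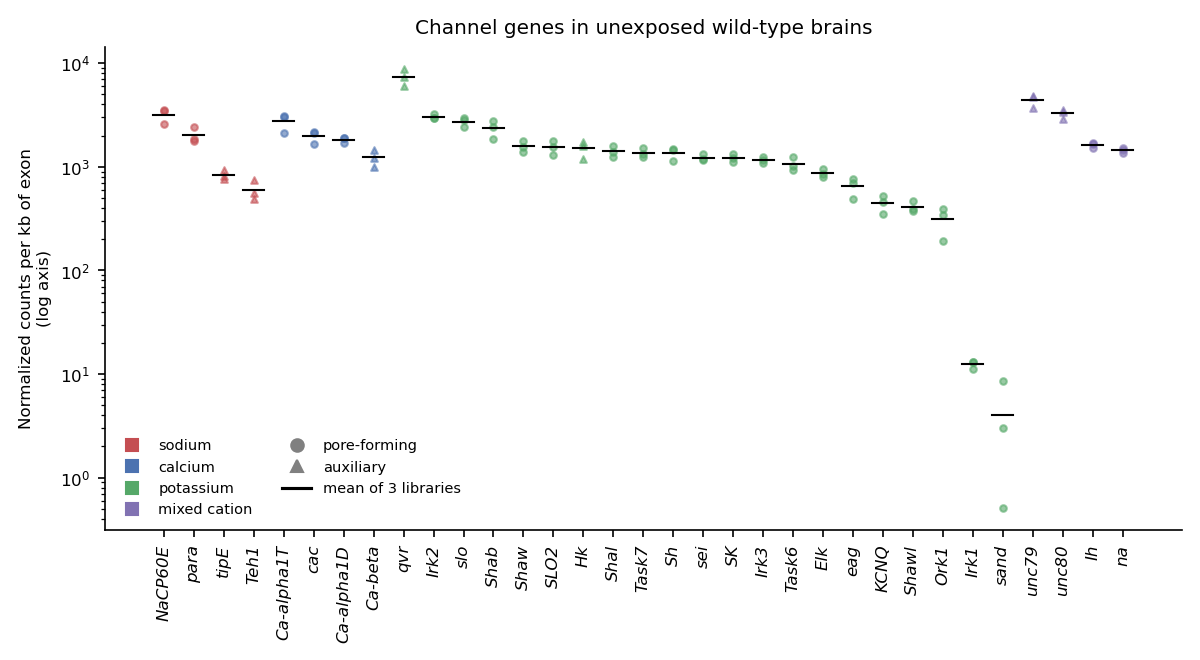
Each point is 1 WT control library, with normalized counts per kilobase of exon on a log axis; genes are grouped by ion and ordered by mean, circles are pore-forming and triangles auxiliary genes, and black lines are means of 3 libraries. Apart from Irk1 (12.5 per kb) and sand (4.04 per kb), all genes average between 311 and 7406 per kb.

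The first comparison asked what oral Ecc15 did to these genes in the wild-type brain. No channel gene, 0 of 33, passed the test after exposure of the wild type (limma, adjusted p under 0.05, smallest 0.637). Over all 13085 genes tested, 0.122% were called higher and 0% lower. The member changes were small. They had a median of 0.10 on the log2 scale, against 0.00 over all genes, and 31 of 33 were smaller than 0.25 in either direction. The 95% interval of the change lay within 0.5 of 0 for 29 members.

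At an unadjusted p under 0.05, Ca-alpha1D, slo and Sh were higher and Irk3 was lower, 3 and 1 members, where 4.75% and 2.54% of all genes tested met that mark. Ca-alpha1D had 23405, 21332 and 21529 normalized counts in WT Ecc15 brains, against 17780, 20046 and 19896 in WT control brains. Each exposed library exceeded each control library, and the log2 change was 0.20 (SE 0.07, limma adjusted p = 0.637). slo had 33070, 31818 and 32348 in WT Ecc15 brains, against 24576, 29804 and 28842 in WT control brains. The groups again did not overlap, at a log2 change of 0.23 (SE 0.09, limma adjusted p = 0.637). Sh and SK were the other members without overlap, 4 in all or 12.1% of the members, and 12.6% of all genes tested had none. All 4 were higher, as in 6.93% of all genes tested, and 0 members were lower without overlap, against 5.67% of all genes. In all 4 the WT control library S1 was the lowest. The authors' deposited table calls no member in this comparison at an adjusted p under 0.05, where it calls 0.83% of genes higher and 0.113% lower.

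The other members that head their class were close in both groups. para had 32989, 35733 and 39211 normalized counts in WT Ecc15 brains, against 29289, 39219 and 30563 in WT control brains. NaCP60E had 51676, 50510 and 52553 in WT Ecc15 brains, against 40485, 55190 and 53786 in WT control brains. Both overlapped, with log2 changes of 0.13 and 0.06. cac had 26793, 24288 and 24452 in WT Ecc15 brains, against 19741, 25555 and 26087 in WT control brains. Ca-alpha1T had 37359, 36364 and 39192 in WT Ecc15 brains, against 27804, 39642 and 41069 in WT control brains. Their log2 changes were 0.09 and 0.08. In para, NaCP60E, cac and Ca-alpha1T alike the lowest value belonged to WT control library S1. Of all 33 members 28 had a change above 0 and 5 below. Without that library the median member change became 0.00, against 0.10 with it.

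The second comparison set exposed PGRP-LB mutants against unexposed wild type. The inward rectifier genes Irk2 and Irk3 were lower and sand was higher in the mutant brains, while most channel genes were close to the controls. limma called 1 member higher and 2 lower at an adjusted p under 0.05, or 3.03% and 6.06% of the members. Over all 13384 genes tested 9.65% were called higher and 6.26% lower. The share of channel genes called in either direction was 9.09%, against 15.9% of all genes. At an unadjusted p under 0.05, 3 members were higher and 5 lower, where 17.5% and 13.9% of all genes tested met that mark. The median member change was 0.08 on the log2 scale, against 0.01 over all genes, and the interval lay within 0.5 of 0 for 26 members.

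Irk2 (chromosome 3R, 23513617 to 23519445, minus strand, BDGP6) showed the clearest difference. It had 3814, 4135 and 4516 normalized counts in PGRP-LB Ecc15 brains, against 7286, 7947 and 7288 in WT control brains. The groups were far apart, with means of 4155 ± 351 and 7507 ± 381 (SD, n = 3 each). Irk2 fell to 0.553 of the control level, a log2 change of -0.86 (SE 0.08, limma adjusted p = 0.000769). In WT Ecc15 brains it had 7142, 7565 and 7133, against 7383, 8080 and 7440 in WT control brains of that table. Exposed and unexposed wild type overlapped, with a 95% interval of -0.20 to 0.07 for the log2 change.

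Irk3 (chromosome 2L, 18711071 to 18713748, minus strand, BDGP6), another inward rectifier gene, had 1771, 1559 and 1875 normalized counts in PGRP-LB Ecc15 brains, against 2553, 2231 and 2380 in WT control brains. Every mutant library was below every control library, and Irk3 fell to 0.726 of the control level (log2 change -0.46, SE 0.09, limma adjusted p = 0.0153). The call was lost without WT control library S1 (-0.41, limma adjusted p = 0.0501) or PGRP-LB Ecc15 library S1. In WT Ecc15 brains Irk3 had 2289, 2091 and 2012, against 2587, 2268 and 2430 in WT control brains of that table. The groups overlapped (log2 change -0.19, limma adjusted p = 0.655). Exons of Irk3 overlap those of Grip71 on the other strand. Grip71 had 231, 236 and 234 normalized counts in PGRP-LB Ecc15 brains, against 350, 319 and 416 in WT control brains, and it was called lower too (log2 change -0.62, limma adjusted p = 0.0199). Whether counting used the strand is not given in the sources used here, so reads of the pair may not be fully separated.

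The third inward rectifier gene, Irk1, was low throughout, with 63, 89 and 95 normalized counts in PGRP-LB Ecc15 brains, against 58, 67 and 68 in WT control brains. Its groups overlapped (log2 change 0.33, SE 0.23, limma adjusted p = 0.374). Its exons overlap those of cnc on the other strand, which had 4627, 5014 and 4428 normalized counts in PGRP-LB Ecc15 brains, against 3349, 3511 and 3166 in WT control brains. Summed per kilobase, the 3 inward rectifiers stood at 57.5% to 65.8% of the WT control mean in the PGRP-LB Ecc15 libraries, at 90.3% to 95.3% after exposure of the wild type and at 98.2% to 102.3% in the WT control libraries. Beside this, 5 of the 9 glial markers (wrapper, Mdr65, alrm, Gs2 and nrv2) were called lower in the mutants against WT control, where 6.26% of all genes were. The median log2 change over the list was -0.37, and no glial marker was at 0. The other glial markers overlapped between the groups, with log2 changes of -0.05 for repo, -0.04 for Gat, -0.14 for Eaat1 and -0.18 for moody. The part of glial content in the inward rectifier values was not tested. In bulk tissue, fewer cells of a type and less RNA per cell cannot be told apart.

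sand (chromosome 2R, 8091696 to 8096948, plus strand, BDGP6) had 62, 74 and 57 normalized counts in PGRP-LB Ecc15 brains, against 6, 17 and 1 in WT control brains. The mutant libraries were alike and all above the controls, which were low and scattered. sand rose 10.3-fold on the log2(value + 1) scale, with a log2 change of 3.36 and a 95% interval of 1.6 to 5.13 (SE 0.75, limma adjusted p = 0.0255). In the authors' deposited table sand has 7.883-fold and an adjusted p of 0.00017. In WT Ecc15 brains sand had 9, 5 and 10. The call rests on few counts and was lost without WT control library S1 (3.44, limma adjusted p = 0.0672) or without any 1 of the 3 PGRP-LB Ecc15 libraries. The direction was the same in all 13 alternatives, between 2.53 and 4.12, and the log2 change was 2.61 with a pseudocount of 5. Exons of sand overlap those of CG8712 (uno) on the other strand, which had 219, 171 and 150 in PGRP-LB Ecc15 brains, against 198, 186 and 129 in WT control brains. CG8712 overlapped between the groups. Of the 11 muscle markers 2 were called higher in the same comparison, and their part in the sand values was not tested.

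The other tandem-pore genes were not called. Ork1 had 790, 1034 and 905 normalized counts in PGRP-LB Ecc15 brains, against 848, 1740 and 1515 in WT control brains. The groups overlapped (log2 change -0.53, SE 0.26, limma adjusted p = 0.211). The low control value was again that of library S1, and without it limma called Ork1 lower (-0.84, adjusted p = 0.0169). Task6 and Task7 each had a log2 change of 0.14, with intervals of -0.12 to 0.40 and -0.07 to 0.36.

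SLO2, related to the sodium-activated potassium channels of mammals, had 12138, 11209 and 12028 normalized counts in PGRP-LB Ecc15 brains, against 12807, 15320 and 17660 in WT control brains. The groups did not overlap, yet the controls spread widely. The log2 change was -0.36 (SE 0.12, limma adjusted p = 0.0800), and the authors' deposited table gives 0.773-fold with an adjusted p of 0.0182. That table calls 1 member higher (sand) and 3 lower (Irk2, Irk3 and SLO2), where it calls 9.03% of genes higher and 6.19% lower. Its adjusted p is 7.26e-18 for Irk2 and 0.000346 for Irk3.

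Ca-alpha1D had 16634, 15866 and 16826 normalized counts in PGRP-LB Ecc15 brains, against 17546, 19717 and 19488 in WT control brains. All mutant libraries were below all controls (log2 change -0.20, SE 0.07, limma adjusted p = 0.0960). Groups without overlap occurred in 9 members or 27.3%, against 35.7% of all genes tested. Elk, slo, sand and Ih were higher and Ca-alpha1D, sei, SLO2, Irk2 and Irk3 lower. Without WT control library S1 limma called 5 members, all lower, which were Ca-alpha1D, Irk2, Ork1, SLO2 and unc79. In that fit 979 of 13450 genes tested were called higher and 602 lower. Under quantile normalization the calls were 1 higher and 4 lower, against 1 and 2 with the authors' scaling. Over all genes quantile normalization called 1054 higher and 1298 lower.

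The genes para, NaCP60E and cac were close to the controls. para had 32569, 32935 and 31848 normalized counts in PGRP-LB Ecc15 brains, against 28903, 38575 and 29935 in WT control brains, and the mutant values fell inside the control range. Its log2 change was 0.01 with a 95% interval of -0.26 to 0.28. NaCP60E had 48158, 46271 and 47732 in PGRP-LB Ecc15 brains, against 39951, 54283 and 52681 in WT control brains. Here too the mutants lay inside the control range (log2 change -0.03). cac had 25276, 23037 and 23284 in PGRP-LB Ecc15 brains, against 19481, 25135 and 25552 in WT control brains, with a log2 change of 0.04.

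Ca-alpha1T had 38306, 35848 and 39060 in PGRP-LB Ecc15 brains, against 27438, 38991 and 40225 in WT control brains (log2 change 0.11). The auxiliary genes tipE, Teh1 and Ca-beta changed by 0.05, 0.14 and 0.16 on the log2 scale, and none was called. qvr had 42336, 38549 and 39584 in PGRP-LB Ecc15 brains, against 30674, 36754 and 44010 in WT control brains. The mutant libraries of qvr again fell inside the control range (log2 change 0.13). slo had 31650, 29520 and 30252 in PGRP-LB Ecc15 brains, against 24252, 29315 and 28249 in WT control brains. It did not overlap, at a log2 change of 0.16 (limma adjusted p = 0.248). The 11 voltage-gated potassium members had log2 changes between -0.20 (sei) and 0.20 (Elk), with no call.

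In the leak complex, unc79 had 37537, 34581 and 38373 normalized counts in PGRP-LB Ecc15 brains, against 37150, 46914 and 48207 in WT control brains. WT control library S1 alone fell inside the mutant range (log2 change -0.25, limma adjusted p = 0.181). unc80 had 32877, 30559 and 34512 in PGRP-LB Ecc15 brains, against 29653, 33888 and 35854 in WT control brains. na had 10919, 10008 and 10926 in PGRP-LB Ecc15 brains, against 10581, 11325 and 11716 in WT control brains. Both overlapped, at -0.02 and -0.08. Ih had 23192, 22409 and 23688 in PGRP-LB Ecc15 brains, against 19024, 20822 and 21215 in WT control brains, with no overlap (log2 change 0.18, limma adjusted p = 0.114).

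**Figure D3:**
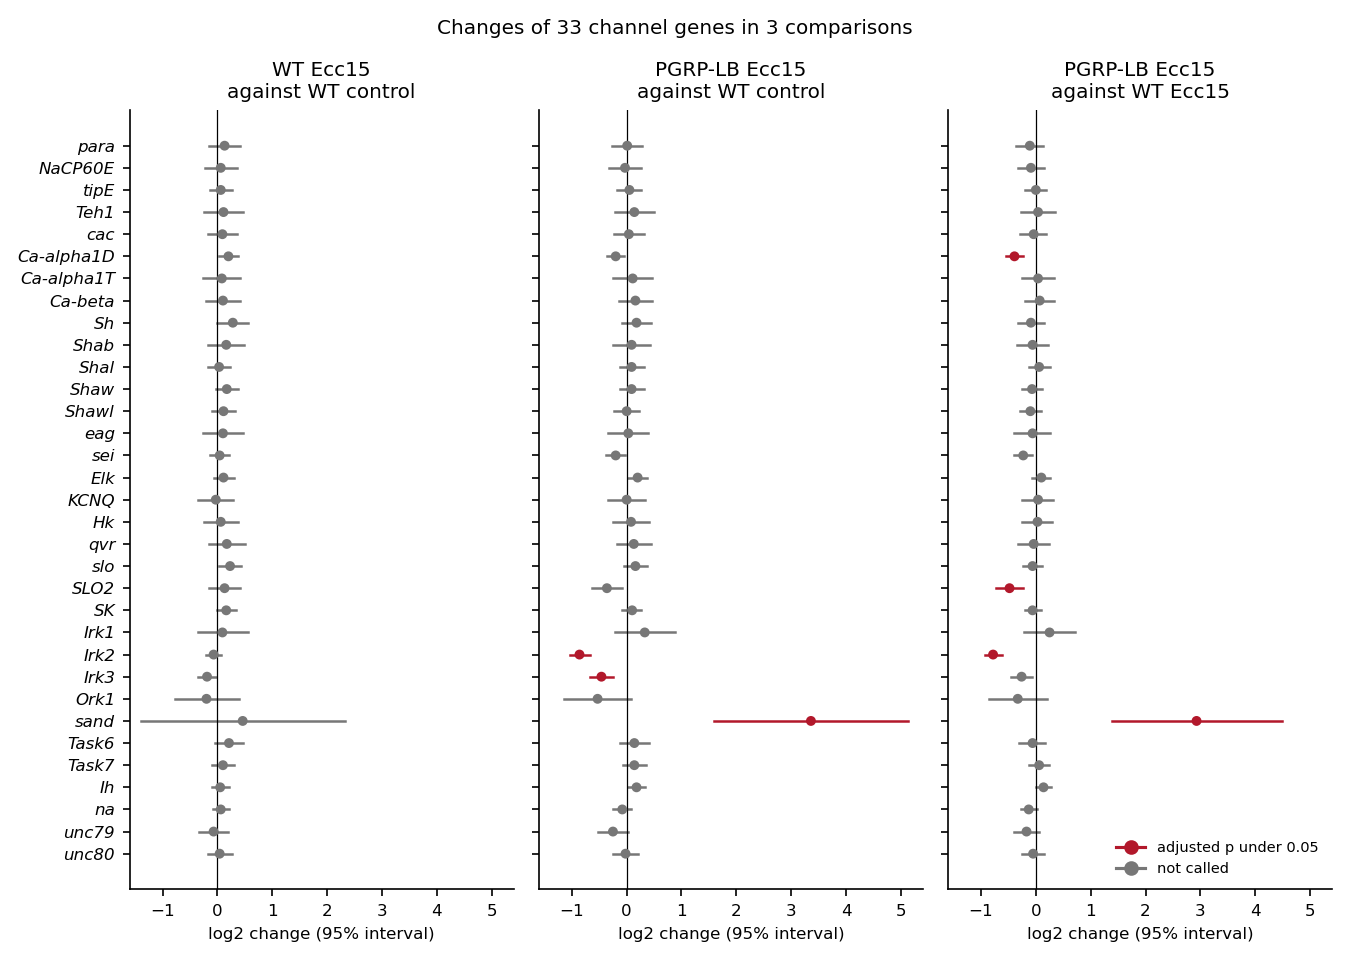
Log2 changes of the 33 channel genes with 95% intervals in 3 comparisons, fitted with limma; red marks an adjusted p under 0.05. No gene is red in WT Ecc15 against WT control, Irk2, Irk3 and sand are red in PGRP-LB Ecc15 against WT control, and Irk2, Ca-alpha1D, SLO2 and sand in PGRP-LB Ecc15 against WT Ecc15. These panels share libraries and are not independent of each other.

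The third comparison set exposed mutants against exposed wild type. Both groups had received the bacterium, but effects of genotype and of any difference in strain background cannot be told apart. No deposited table holds both groups, so the values were first put on 1 common scale. Irk2, SLO2 and Ca-alpha1D were lower and sand was higher in the mutants. limma called 1 member higher and 3 lower, or 12.1% of the members, where 9.97% of the 13224 genes tested were called higher, 6.65% lower and 16.6% either way. The median member change was -0.06, against 0.01 over all genes.

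Irk2 had 3852.5, 4196.0 and 4575.1 normalized counts on the common scale in PGRP-LB Ecc15 brains, against 7079.2, 7470.4 and 7046.9 in WT Ecc15 brains. The gap was wider than the spread of either group. The log2 change was -0.78 (SE 0.07, limma adjusted p = 9.86e-05), and Irk2 was called in all 16 alternatives run for this comparison. Irk3 averaged 1757 ± 161 in PGRP-LB Ecc15 and 2107 ± 145 in WT Ecc15 brains (SD, n = 3 each), with a log2 change of -0.26 (limma adjusted p = 0.0633).

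Ca-alpha1D (chromosome 2L, 16165831 to 16190540, plus strand, BDGP6) had 16801.8, 16100.1 and 17046.1 normalized counts on the common scale in PGRP-LB Ecc15 brains, against 23199.3, 21065.1 and 21269.2 in WT Ecc15 brains. The mutant libraries were all lower, at 0.763 of the WT Ecc15 level (log2 change -0.39, SE 0.07, limma adjusted p = 0.00326), also in all 16 alternatives. WT control brains stood between them, at 17638.8, 19841.0 and 19702.2.

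SLO2 (chromosome 2R, 10322195 to 10416996, minus strand, BDGP6) had 12260.4, 11374.4 and 12185.4 in PGRP-LB Ecc15 brains, against 18185.8, 16288.6 and 15623.2 in WT Ecc15 brains. It fell to 0.716 of the WT Ecc15 level, with groups well apart (log2 change -0.48, SE 0.11, limma adjusted p = 0.0164). The call was lost without PGRP-LB Ecc15 library S2 or WT Ecc15 library S1. sand had 62.6, 75.1 and 57.7 in PGRP-LB Ecc15 brains, against 8.92, 4.94 and 9.88 in WT Ecc15 brains. It rose 7.63-fold (log2 change 2.93, SE 0.69, limma adjusted p = 0.0185). Here the call was lost without PGRP-LB Ecc15 library S1 or S2 or WT Ecc15 library S2.

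Groups did not overlap in 13 members, 2 higher (sand and Ih) and 11 lower, or 39.4% of the members against 38.9% of all genes tested. By direction, 33.3% of the members were lower without overlap, against 17.4% of all genes, and 6.06% were higher, against 21.5% of all genes. The 11 lower members were NaCP60E, Ca-alpha1D, Shawl, sei, SLO2, SK, Irk2, Irk3, Ork1, na and unc79. Most of these differences were small. The gene sei, the fly ERG-type potassium channel, came nearest to a call, with a log2 change of -0.23 (limma adjusted p = 0.0532). Its exons overlap those of gammaSnap1 on the other strand, which changed by -0.24 in the same comparison (limma adjusted p = 0.0593). Against WT Ecc15, 4 of the 9 glial markers and 4 of the 7 haemocyte markers were called lower in the mutants and 8 of the 11 muscle markers higher. Over all genes tested 6.65% were called lower and 9.97% higher. Of the 8 neuronal markers 0 were called, yet their sums did not overlap, at 224239 to 236290 against 237055 to 249662 in WT Ecc15 brains. nSyb, fne and CadN were lower without overlap, while elav, brp, Syt1, Syx1A and futsch overlapped. The part of these cell types in the channel values was not tested.

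**Figure D4:**
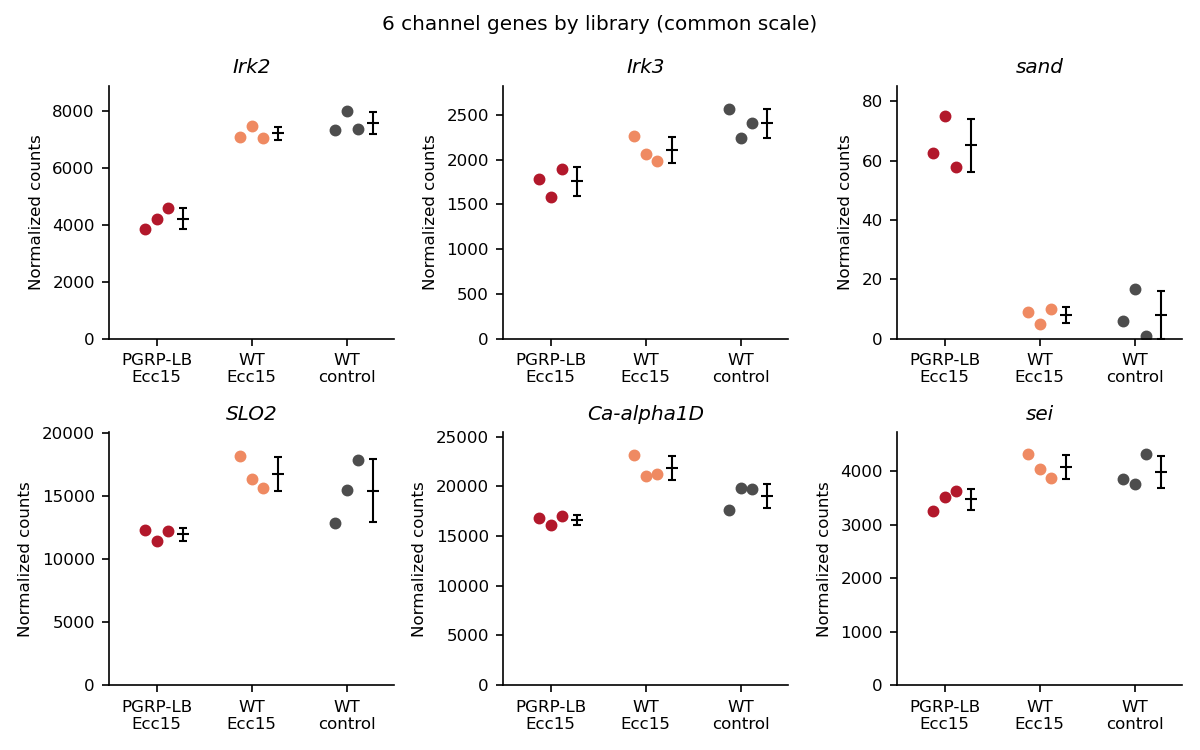
Normalized counts of 6 channel genes on the common scale, 1 point per library, with the mean and SD of each group beside the points. Irk2 lies between 3852.5 and 4575.1 in PGRP-LB Ecc15 and at 7046.9 or more in both wild-type groups, sand lies at 57.7 to 75.1 in the mutants and at 16.8 or less in both wild-type groups, and the SLO2 controls reach from just above the mutant libraries into the range of WT Ecc15.

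Summed by class, few differences exceeded the spread between libraries. On the common scale the pore-forming potassium genes stood at 0.96 of the WT control mean in PGRP-LB Ecc15 brains and at 1.07 in WT Ecc15 brains, both means within the control libraries' range of 90.3% to 107.7%. The pore-forming genes placed with sodium, NaCP60E and para, stood at 0.98 of the WT control mean in PGRP-LB Ecc15 brains and at 1.05 in WT Ecc15 brains. Calcium channel genes stood at 1.0 in PGRP-LB Ecc15 brains and at 1.07 in WT Ecc15 brains. The class of slo, SLO2 and SK stood at 98.5% to 104.4% in PGRP-LB Ecc15 libraries, at 110.8% to 117.2% after exposure of the wild type and at 87.9% to 106.4% in WT control libraries. Voltage-gated potassium, tandem-pore and mixed cation sums were at most 1.09 in either exposed group. These sums were not tested.

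**Figure D5:**
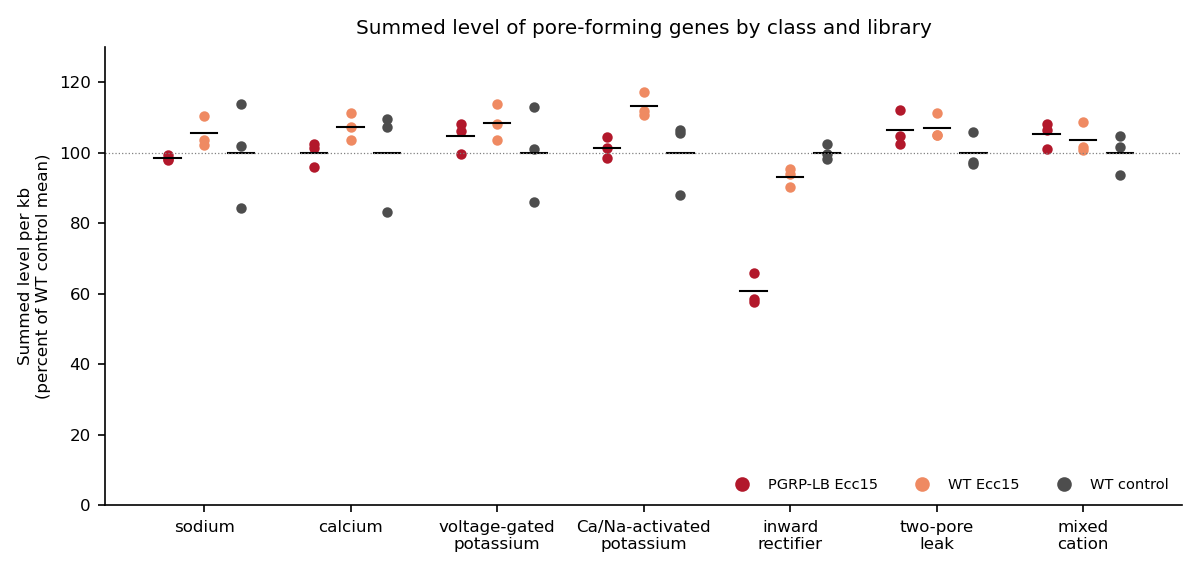
Summed level per kilobase of the pore-forming genes of each class in each library, as a percentage of the WT control mean, with black lines at the group means. The inward rectifiers of PGRP-LB Ecc15 brains, at 57.5% to 65.8%, lie apart from all other points, and the control points spread most in the sodium, calcium and voltage-gated potassium classes.

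Related genes that set the same currents or gradients were examined from 7 lists. In WT Ecc15 against WT control none was called, and the list medians lay between -0.26 (TRP channels) and 0.06 on the log2 scale. The counts that follow stand against 9.65% of all genes called higher and 6.26% called lower in PGRP-LB Ecc15 against WT control. There, 1 of 4 further sodium channel auxiliaries was called higher, Teh4 (log2 change 0.37, limma adjusted p = 0.0481). Of 3 further calcium channel auxiliaries 1 was called lower. This was stol, deposited as CG4587, an alpha2delta-type subunit, with 9508, 9661 and 9834 normalized counts in PGRP-LB Ecc15 brains, against 13635, 13452 and 10773 in WT control brains. The mutant libraries were nearly equal and all below the controls (log2 change -0.38, SE 0.10, limma adjusted p = 0.0417). Against WT Ecc15 stol was also lower (-0.40, limma adjusted p = 0.0248).

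Among 7 further tandem-pore potassium channel genes, CG34396 was higher (log2 change 0.85, limma adjusted p = 0.0489) and CG42340 lower (-0.70, limma adjusted p = 0.00297) in the mutants. CG42340 had 1211, 1088 and 1252 normalized counts in PGRP-LB Ecc15 brains, against 1796, 1882 and 2115 in WT control brains, without overlap. None of 8 potassium channel modulators was called, among them Slob, which binds the Slo channel (log2 change 0.00). Of 7 tested chloride channel genes Best1 was higher (0.49, limma adjusted p = 0.00936) and ClC-a lower (-0.61, limma adjusted p = 0.00255). ClC-a had 2359, 2355 and 2322 normalized counts in PGRP-LB Ecc15 brains, against 3420, 3954 and 3381 in WT control brains, again without overlap.

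Of 8 tested genes for the sodium pump and cation-chloride cotransport, CG33310 was higher (1.46, limma adjusted p = 0.0112) and nrv2, a pump beta subunit that is also one of the glial markers, lower (-0.38, limma adjusted p = 0.0135). TRP channels, a family of cation channels, had 3 of 12 tested members lower. These were wtrw (-0.56, limma adjusted p = 0.0011), pyx (-0.62, limma adjusted p = 0.0274) and nompC (-0.75, limma adjusted p = 0.034). In PGRP-LB Ecc15 against WT Ecc15, CG34396, Best1, CG33310 and iav were called higher and CG42340, ClC-a, nrv2 and wtrw lower. The TRP gene iav had a log2 change of 1.02 there (limma adjusted p = 0.0184).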

How the data were processed

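Stranded poly(A) libraries were made from 250 ng of RNA per pool and sequenced in 1 lane, per the labels' protocols. Per the submitters' processing notes the authors used HISAT2, HTSeq, featureCounts and DESeq2, with no role given. Build and annotation: not given in the sources used here. Deposited values per library, called raw data in a sheet title, differ between the 2 tables by 1.013 to 1.021 for the same controls. They are treated as a score, that is, as normalized counts scaled per table and rounded by the authors. Other deposited columns hold the authors' fold ratio, its log2 value and an adjusted p-value, named as such wherever printed.

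The tests were planned for either unit. limma-trend (limma 3.58.1, R 4.3.3) was run on log2(value + 1) within a table, leaving out genes whose mean was under 1, two-sided, with Benjamini-Hochberg adjustment over all genes tested. On this scale the added 1 draws changes of low genes toward 0, while a difference of mean logs can exceed the ratio of means where libraries scatter, as for sand (10.3-fold). For PGRP-LB Ecc15 against WT Ecc15, all 9 libraries were fitted together after median-of-ratios factors of 0.985 to 1.013. Class sums use that scale. The smallest exact permutation p for 3 against 3 is 0.1. Lengths are union exon bases of the BDGP6 annotation (Ensembl release 115), matched by symbol, and 11 members share exon bases with another gene. The estimate of counted reads was checked on 7 simulated libraries, with an error of at most 3.33%. Simulated data had 100 genes changed by 0.5 on the log2 scale and 100 others by 1. Of those changed by 0.5, 75% were recovered in each comparison against WT control and 82% between the exposed groups. Each comparison also gave 7 to 11 false calls. The simulated noise was independent between genes and had no spread shared within a library. The channel genes had such a spread, so these percentages need not hold for them.

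Column marks S1 to S3 could not be matched to the titles' replicate numbers. The labels do not say that pools are independent cultures of flies, so p-values measure the spread between these pools. Members and gene lists were chosen with earlier results of these data known. A member was given in every library when called in any comparison, when called in the authors' table, or when among the 3 highest or the lowest of its ion class in WT control brains. Of each related list up to 4 members were named. Marker lists covered neurons, glia, haemocytes, fat body, muscle and photoreceptors. In PGRP-LB Ecc15 against WT control, limma called 0 neuronal, 0 photoreceptor, 1 haemocyte (lower) and 1 fat body (higher, Fbp2, at 0 in WT control) marker. No sequence is printed.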

Additional observations from a re-analysis of the deposited data

How the results depend on the processing

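With 3 pools per group, and counts under 20 for sand in wild-type brains, small changes and its level were not resolved at this depth. For 9 channel genes in 3 comparisons, 377 values were computed under the alternatives of scaling, filter, pseudocount, trend and left-out libraries, and 347 kept their direction and side of the threshold, while 13 lost a call, 13 gained one and 4 turned direction. The 4 that turned were uncalled changes in WT Ecc15 against WT control. They were sei without WT Ecc15 library S1 (0.00), Ork1 without WT control library S2 (0.01), and without WT control library S3 sand (-0.37) and unc79 (0.00). With 1 library left out they ranged over 0.00 to 0.10 for sei, -0.51 to 0.01 for Ork1, -0.37 to 1.22 for sand and -0.19 to 0.00 for unc79. In that comparison 0 members were called in all 13 alternatives, where 0 to 28 of all genes were called higher and 0 lower.

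In PGRP-LB Ecc15 against WT control the 3 calls became 5 with quantile normalization (1 higher and 4 lower). Over all genes that setting called 1054 higher and 1298 lower, where the authors' scaling gave 1292 higher and 838 lower. Without a mean-variance trend 1 member was called (Irk2), against 959 genes higher and 519 lower. A fit over all 9 libraries called 5 members, against 1721 genes higher and 1285 lower of 13224. With a library left out 1 to 5 members were called, against 742 to 1059 genes higher and 387 to 673 lower. Without PGRP-LB Ecc15 library S1 only Irk2 was called, against 776 genes higher and 422 lower. Irk2 was called in 13 of 13 alternatives, Irk3 in 10 and sand in 8. In PGRP-LB Ecc15 against WT Ecc15 the 4 calls became 2 to 5 with a library left out, fewest without PGRP-LB Ecc15 library S2 (Irk2 and Ca-alpha1D). Over all genes these fits called 813 to 1499 higher and 536 to 1011 lower. The cause of these shifts in calls was not tested. By the longest transcript, the shares of the summed level were 62.2% for potassium, 15.8% for calcium and 8.6% for mixed cation channels. The ratios of the summed levels to WT control moved by less than the spread. No paired analysis was possible because the columns carry no replicate number of the labels and the titles of the groups share fewer than 2 numbers.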
